A study of Rattus norvegicus with 16 samples.

Results

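The genes described here are the apolipoproteins of the liver and the proteins that assemble lipoproteins with them. They were chosen by name, with earlier results of these data known, as a list of 10 genes (Apoa1, Apoa2, Apoa4, Apoa5, Apob, Apoc3, Apoe, Apoh, Apom and Mttp). Each was taken from the row of the deposited table that carried its symbol and no other. By this rule 6 of the 10 had a row of their own (Apoa2, Apoa5, Apob, Apoe, Apoh and Apom), out of 13215 genes with such a row in the whole table. Each of the 6 had exactly 1 row, so no choice between rows was made. Apoa1, Apoa4, Apoc3 and Mttp were not analysed here. Since the transfer protein Mttp was among them, all 6 measured genes were apolipoproteins, and the assembly machinery enters only through a list of other genes.

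Liver RNA came from 16 male Sprague Dawley rats, 1 exon array per animal, in 4 groups of 4. One group was fed, one was fasted to phase 2 of fasting (P2), one to phase 3 (P3), and the last, P3r2, had food again for 2 days after reaching phase 3. Body fat is the main fuel of phase 2, and the breakdown of body protein rises in phase 3. The labels name no engineered allele and no drug, and how long each fast lasted is not stated there.

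Apolipoproteins are the protein coat of the particles that carry fat and cholesterol in blood. The liver builds very low density lipoprotein (VLDL) around 1 molecule of apolipoprotein B, which is loaded with triglyceride in the endoplasmic reticulum, and it also secretes the proteins of high density lipoprotein (HDL). Smaller apolipoproteins move between particles and steer the lipases and receptors that act on them. In a fast the liver takes up fatty acids from adipose tissue, and lipoprotein secretion is one of the ways in which it disposes of them.

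The values are log2 signals of transcript clusters, each a summary of a group of probes, so a difference of 1 is a 2-fold change. Array medians lay between 4.34 and 4.46, and arrays correlated at 0.966 to 0.992 within groups. Fed 2, P2 4 and P3 3 had the narrowest spread of values for their groups (SD over rows of 2.12, 2.14 and 2.18), and results that rest on them are given with and without them. Hepatocyte markers were bright on all arrays: albumin (Alb) lay between 12.98 and 13.53. Levels are compared between groups within 1 gene and not between genes. Apoe (12.89 to 13.43) and Apoh (12.06 to 13.15) lay near the highest signal of any row on an array (13.39 to 13.63), where an array can compress differences. "Called" stands below for a Benjamini-Hochberg adjusted p under 0.05 from limma over 18884 rows, and errors of differences are standard errors of that fit.

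The 6 genes did not move as a block. Apoa2 and Apom were lowest at phase 3 and returned with re-feeding, Apoa5 rose through the fast and fell with re-feeding, Apoh was higher at phase 2 alone, Apoe varied in a narrow range and was called only as lower at P3 than at P2, and Apob was lower in both fasted groups without passing the test. The promoters of 3 genes with 3 different courses are shown first. The motif search was added after the values of the genes were seen. RefSeq (assembly GRCr8) gave a promoter window for 4 of the 6 genes (Apoa5, Apoe, Apoh and Apom). Of Apoa5, Apom and Apoh the 250 bases upstream of the most upstream listed start follow, 5′ to 3′ on the coding strand, which is the plus strand for all 3. Capitals mark matches to 5 short motifs, searched on both strands: AGGTCA (the half-site of many nuclear receptors), GTTAAT (a half-site of HNF1), TATAAA (the TATA box), AGAACA (a half-site of the glucocorticoid receptor) and TTGNGNAA (a form of the C/EBP motif).
Apoa5, chr8:55457621-55457870: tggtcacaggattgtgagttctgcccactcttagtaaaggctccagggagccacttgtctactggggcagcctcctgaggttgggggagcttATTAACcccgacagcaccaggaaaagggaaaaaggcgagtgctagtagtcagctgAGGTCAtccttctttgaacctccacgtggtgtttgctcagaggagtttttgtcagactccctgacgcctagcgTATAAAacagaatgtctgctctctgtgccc
Apom, chr20:3695368-3695617: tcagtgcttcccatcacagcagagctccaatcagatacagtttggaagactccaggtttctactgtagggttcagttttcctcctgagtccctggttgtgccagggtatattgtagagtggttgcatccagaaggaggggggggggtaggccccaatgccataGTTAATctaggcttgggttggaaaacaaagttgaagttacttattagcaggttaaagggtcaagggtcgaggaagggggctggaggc
Apoh, chr10:93841742-93841991: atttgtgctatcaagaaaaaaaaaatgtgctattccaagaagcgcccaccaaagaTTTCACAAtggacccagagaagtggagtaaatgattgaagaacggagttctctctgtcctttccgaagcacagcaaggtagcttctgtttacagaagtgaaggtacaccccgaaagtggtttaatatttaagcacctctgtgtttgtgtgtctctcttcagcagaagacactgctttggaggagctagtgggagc
The Apoa5 window held TATAAA beginning 30 bases before the start, AGGTCA at 103 bases and GTTAAT, on the other strand, at 158 bases. The Apom window held GTTAAT at 87 bases. The Apoh window held TTGNGNAA on the other strand at 195 bases. No motif overlapped another, and AGAACA had no match in these windows. Apoe, whose 3 windows are not shown, had no match to any of the 5 motifs. Such short motifs are common: of 33469 RefSeq windows of the same length, 14.1% held AGGTCA, 6.45% GTTAAT, 12.9% TATAAA, 17.5% AGAACA and 11.7% TTGNGNAA. A match describes letters and does not show a bound site.

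**Figure D1:**
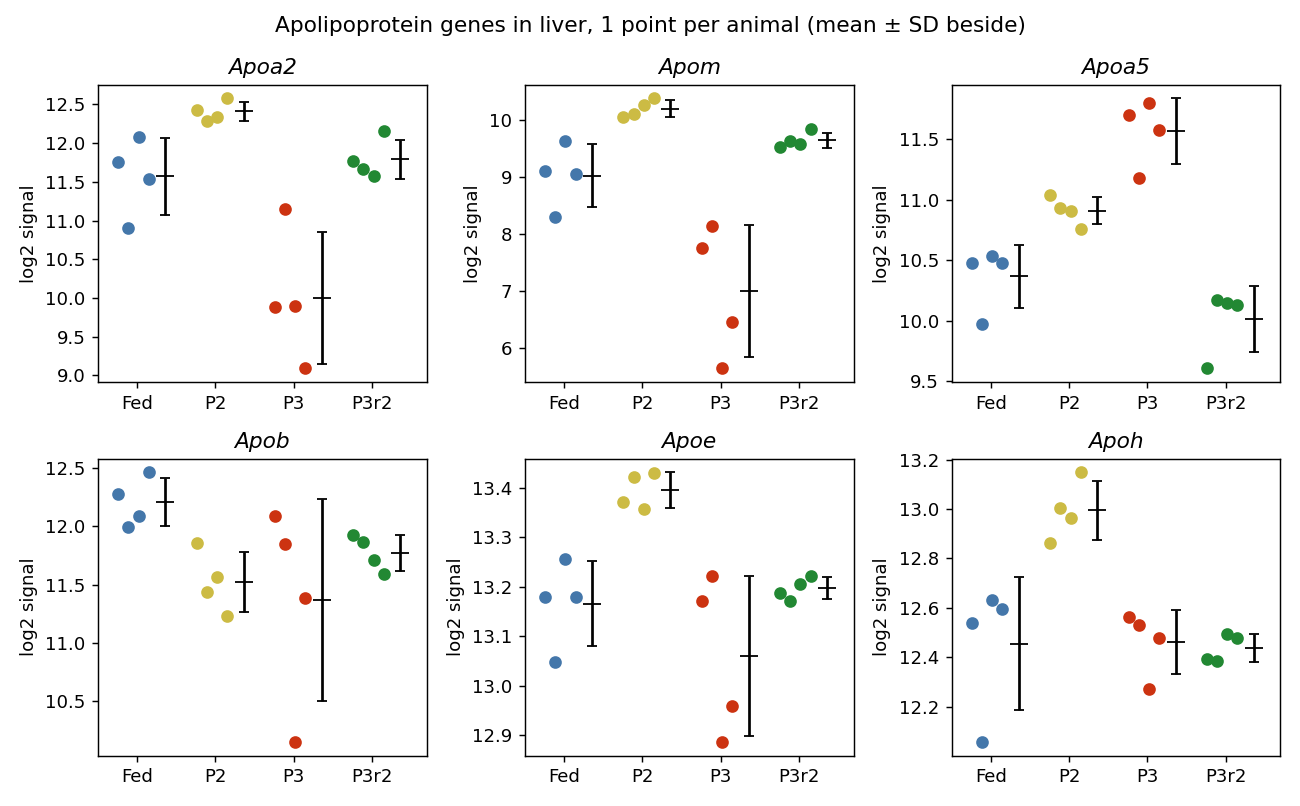
Log2 signal of the 6 measured apolipoprotein genes (vertical axes, a separate scale for each gene), with 1 point per animal in the fed, P2, P3 and P3r2 groups and the mean ± SD of the 4 animals beside them. Apom and Apoa2 have their lowest and most scattered values at P3, and Apoa5 its highest. In Apom, Apoa2, Apoe and Apoh all P2 animals lie above those of the other groups.

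Apom codes for apolipoprotein M, a lipocalin bound mostly to HDL that carries sphingosine-1-phosphate. Its log2 signal (transcript cluster 7216754) was 9.11, 8.29, 9.63 and 9.06 in the fed animals, 10.05, 10.10, 10.27 and 10.38 at P2, 7.76, 8.15, 5.65 and 6.47 at P3, and 9.52, 9.63, 9.58 and 9.84 after re-feeding. All P3 animals lay below every other animal, and all P2 animals lay above every other animal. Apom was 4.05-fold lower at P3 than in fed livers (log2 difference -2.02 ± 0.41, limma adjusted p = 0.0021) and 9.16-fold lower than at P2 (-3.20 ± 0.41, adjusted p = 5.0e-05). Re-feeding raised it above P3 by 2.64 ± 0.41, or 6.23-fold (adjusted p = 0.00024). At P2 it stood 1.18 ± 0.41 above fed livers (adjusted p = 0.072), which was not called, although no value overlapped. The order of the means was P2, P3r2, fed, P3. Neither P3r2 and P2 (-0.56 ± 0.41, adjusted p = 0.38) nor P3r2 and fed (0.62 ± 0.41, adjusted p = 0.58), which are neighbours in this order, passed the test with the spread shared over all groups, of which P3 had the largest (SD 1.16). P3r2 and P2 animals did not overlap, and with these groups fitted alone their difference was called (-0.56 ± 0.12, limma adjusted p = 0.013).

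Apoa2 codes for apolipoprotein A-II, one of the main structural proteins of HDL. Its signal (transcript cluster 7107750) was 11.76, 10.91, 12.08 and 11.54 in fed livers, 12.43, 12.29, 12.34 and 12.58 at P2, 9.88, 11.15, 9.89 and 9.09 at P3, and 11.77, 11.66, 11.58 and 12.15 after re-feeding. P3 2 overlapped the fed range, and the other 3 P3 animals lay below all animals of the other groups. Apoa2 was 2.97-fold lower at P3 than in fed livers (log2 difference -1.57 ± 0.33, limma adjusted p = 0.0025) and 5.30-fold lower than at P2 (-2.41 ± 0.33, adjusted p = 7.8e-05). Re-feeding brought it 1.79 ± 0.33 above P3, or 3.45-fold (adjusted p = 0.00097). At P2 it lay 0.84 ± 0.33 above fed livers without overlap, and this was not called (adjusted p = 0.10). Re-fed and fed livers differed by 0.22 ± 0.33 (95% interval -0.48 to 0.92).

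Apoa5 codes for apolipoprotein A-V, a scarce protein made in the liver that lowers plasma triglyceride by aiding lipoprotein lipase. At P3 against fed livers and from P3 to re-feeding it ran opposite to Apom and Apoa2, but at P2 its mean, like theirs, was above that of fed livers. Its signal (transcript cluster 7335733) was 10.48, 9.97, 10.54 and 10.47 in fed livers, 11.04, 10.94, 10.91 and 10.76 at P2, 11.70, 11.18, 11.80 and 11.58 at P3, and 9.60, 10.17, 10.15 and 10.13 after re-feeding. The fed, P2 and P3 groups stood in this order with no overlap. Of the 4 re-fed animals 3 fell within the fed range, and the other one was below it. Fed 2 alone set the low end of that range, and all re-fed animals lay below the other fed animals. Apoa5 rose at P3 against fed livers by 1.20 ± 0.17 log2 units, or 2.30-fold (limma adjusted p = 7.0e-05), and against P2 by 0.66 ± 0.17 (adjusted p = 0.0092). With re-feeding it fell by 1.55 ± 0.17 log2 units from P3, to 2.93-fold lower (adjusted p = 6.1e-06), and it then lay below P2 (-0.90 ± 0.17, adjusted p = 0.0026). The rise at P2 against fed livers (0.55 ± 0.17, adjusted p = 0.043) was called by a small margin. The omission of any 1 of 11 arrays ended this call, with a highest adjusted p of 0.099 without fed 2. The difference of re-fed from fed livers (-0.35 ± 0.17, adjusted p = 0.35) was not called.

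Apoh codes for beta-2-glycoprotein I, a plasma protein that binds anionic phospholipids and is found in part on lipoproteins. Its signal (transcript cluster 7073093) was 12.54, 12.06, 12.63 and 12.60 in fed livers, 12.86, 13.01, 12.97 and 13.15 at P2, 12.56, 12.53, 12.27 and 12.48 at P3, and 12.39, 12.38, 12.49 and 12.48 after re-feeding. Every P2 animal was above every animal of the other groups, which overlapped each other. Apoh rose at P2 against fed livers by 0.54 ± 0.12 log2 units, or 1.45-fold (limma adjusted p = 0.011), and it was lower than at P2 in P3 livers (-0.53 ± 0.12, adjusted p = 0.0049) and in re-fed livers (-0.56 ± 0.12, adjusted p = 0.0075). With the P2 and fed arrays fitted alone the rise had an adjusted p of 0.058, and without the 3 arrays of narrow spread it was 0.36 ± 0.09 (adjusted p = 0.020), still called. P3 and fed livers differed by 0.0055 ± 0.12 (95% interval -0.26 to 0.27).

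Apoe codes for apolipoprotein E, the ligand by which remnant particles bind the LDL receptor family. Its signal (transcript cluster 7048681) was 13.18, 13.05, 13.26 and 13.18 in fed livers, 13.37, 13.42, 13.36 and 13.43 at P2, 13.17, 13.22, 12.89 and 12.96 at P3, and 13.19, 13.17, 13.21 and 13.22 after re-feeding. The P2 animals were again above all others, while P3 3 and P3 4 were below all others. Apoe was 1.26-fold lower at P3 than at P2 (log2 difference -0.34 ± 0.09, limma adjusted p = 0.014), with an adjusted p of 0.053 without the 3 arrays of narrow spread and 0.079 with the P3 and P2 arrays fitted alone. None of its other differences was called. The largest of them was 0.23 ± 0.09 at P2 against fed livers (adjusted p = 0.11).

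Apob codes for apolipoprotein B, the backbone of VLDL, of which each particle holds 1 molecule. Its signal (transcript cluster 7296011) was 12.28, 11.998, 12.09 and 12.47 in fed livers, 11.86, 11.43, 11.56 and 11.23 at P2, 12.09, 11.85, 10.14 and 11.39 at P3, and 11.92, 11.86, 11.71 and 11.59 after re-feeding. The P2 and re-fed animals were all below the fed animals, and P3 1 lay within the fed range. None of the 6 differences of Apob was called with the values as deposited and all arrays. Against fed livers the difference was -0.69 ± 0.30 log2 units at P2 (limma adjusted p = 0.15) and -0.84 ± 0.30 at P3 (adjusted p = 0.068). These 2 values rested on P3 3 in different ways. Without that array the P2 difference was called (-0.69 ± 0.17, adjusted p = 0.014), since the shared estimate of spread fell, while the P3 difference was -0.43 (adjusted p = 0.13). The P3 difference was called without P3 1 (-1.08, adjusted p = 0.018) or P3 2 (adjusted p = 0.040). Other processing also called Apob lower than in fed livers. At P2 it was called with quantile normalization (adjusted p = 0.045), with the P2 and fed arrays fitted alone (0.035) and without the 3 arrays of narrow spread (0.033). At P3 it was called with quantile normalization (0.042), with dim rows left out (0.036), with array spread as a covariate (0.023) and with a trend with gene length taken out (0.0075). Without P3 3 the difference of P3 from P2 turned from -0.15 to 0.26, neither called.

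**Figure D2:**
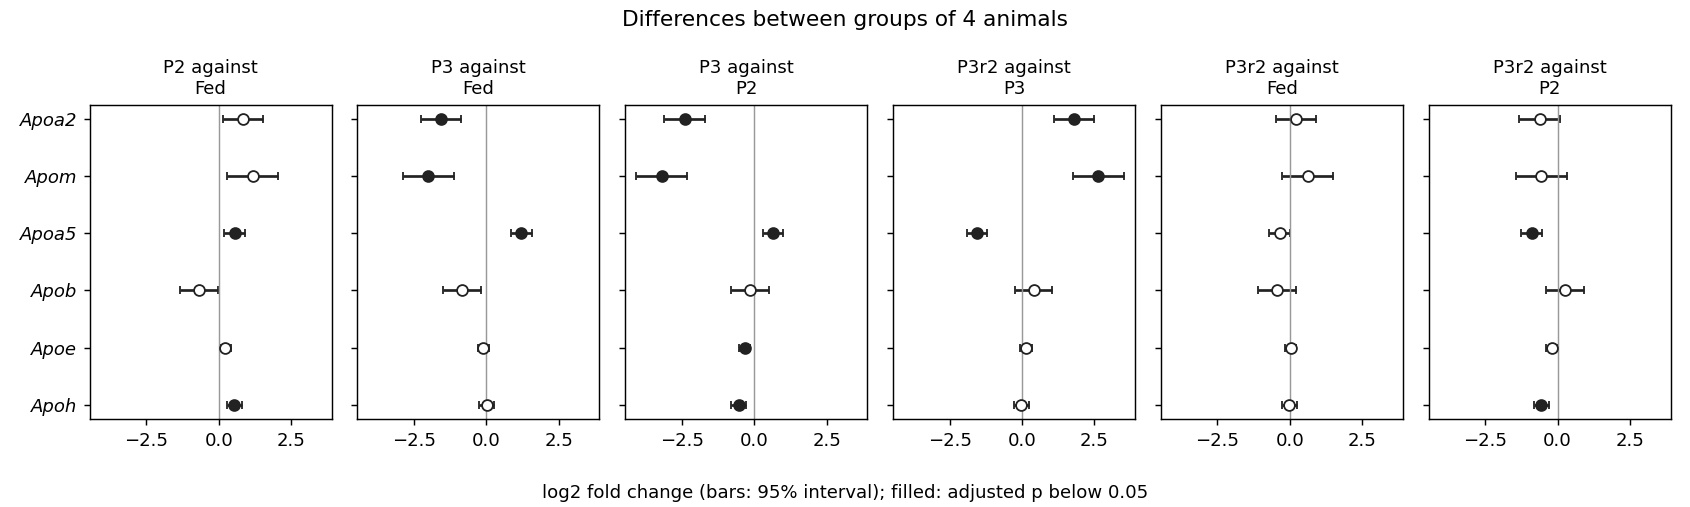
Log2 fold change of each gene (rows) in the 6 comparisons between groups of 4 animals (panels), with bars for the 95% interval of the fit before adjustment for multiple tests and filled points for genes called at an adjusted p below 0.05. Apom, Apoa2 and Apoa5 carry the large differences of the P3 panels, and no gene is called between re-fed and fed livers.

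Counted together, 2 of the 6 genes were called at P2 against fed livers, both higher, where 12.7% of all rows were called, 6.13% higher and 6.58% lower. Against fed livers 3 were called at P3, 1 higher and 2 lower (19.3% of all rows called, 11.3% higher and 8.07% lower). Between the phases, 1 was higher and 4 were lower at P3 than at P2 (22% of all rows called, 13.5% higher and 8.53% lower). With re-feeding 2 rose and 1 fell from P3 (18.4% of all rows, 10.5% higher and 7.94% lower). Between re-fed and fed livers 0 were called by limma (2.72% of all rows, 2.21% higher and 0.514% lower). Apoa5 stood nearest to the limit there: its unadjusted 95% interval ran from -0.70 to 0.0016, so that 0 of the 6 had an unadjusted p below 0.05. Against P2, 2 genes were lower in re-fed livers (15.6% of all rows called, 4.36% lower). The median log2 difference of the 6 genes was 0.54 at P2 and -0.47 at P3 against fed livers, where the medians over all rows were 0.05 and 0.03.

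By the ranges alone, all 6 genes differed without overlap between P2 and fed livers, 5 higher and 1 lower. Of all rows, 19.2% did so, 10.2% higher and 9% lower. At P3 against fed livers 2 genes did not overlap, Apoa5 higher and Apom lower (19.6% of all rows, 11.5% higher and 8.05% lower). Between P3 and P2 there were 5, 1 higher and 4 lower (21.9% of all rows, 12.6% higher and 9.36% lower), and from P3 to re-feeding 3, 2 higher and 1 lower (22.8% of all rows, 12.6% higher and 10.2% lower). Between re-fed and fed livers Apob alone did not overlap, lower in the re-fed animals (12.5% of all rows, 9.85% higher and 2.7% lower). Between re-fed and P2 livers there were 5, all lower and all but Apob (23.9% of all rows, 14.9% higher and 8.96% lower). The P2 call of Apoa5 held with 5 of 16 single arrays left out, and that of Apoh with 16 of 16. Apom was not called at P2 with all arrays and was called without P3 2 (adjusted p = 0.042) or P3 3 (adjusted p = 0.020). Apoa2 was called there without P3 2 (adjusted p = 0.032). The counts at P3 against fed livers, between the phases and from P3 to re-feeding were 3 to 4, 5 to 5 and 3 to 3 over the 16 omissions.

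**Figure D3:**
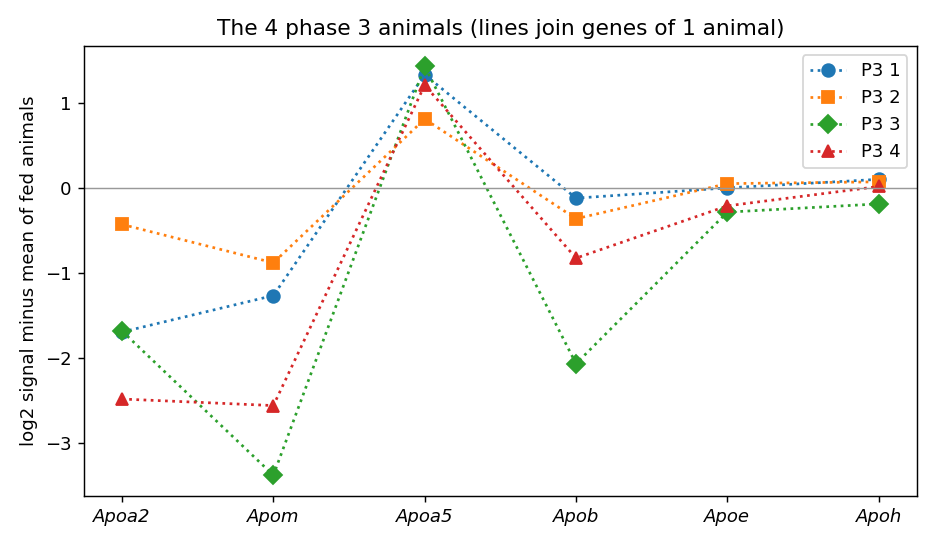
Log2 signal minus the mean of the 4 fed animals (vertical axis) for the 6 genes (horizontal axis) in the 4 animals at P3, with dotted lines joining the genes of 1 animal. P3 2 is the animal nearest to the fed mean in Apoa2, Apom and Apoa5, and P3 3 is the lowest in Apom, Apob, Apoe and Apoh.

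The animals at P3 differed among themselves more than those of the other groups for several genes. The SD at P3 was 1.16 for Apom, 0.85 for Apoa2 and 0.87 for Apob, against 0.55, 0.49 and 0.21 in fed livers, 0.15, 0.13 and 0.26 at P2 and 0.14, 0.25 and 0.15 in re-fed livers. P3 2 was nearest to the fed mean in Apoa2 (-0.42), Apom (-0.88) and Apoa5 (0.82). P3 3 was lowest in Apom (-3.38), Apob (-2.06), Apoe (-0.28) and Apoh (-0.18), while in Apoa2 the lowest was P3 4 (-2.48). P3 3 is also 1 of the arrays of narrow spread. Without it the P3 differences from fed livers were -1.57 for Apom (limma adjusted p = 0.0035) and -1.53 for Apoa2 (adjusted p = 0.0076), both still called.

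Cell type markers were compared over the same groups. Of all rows, 11.3% were called higher and 8.07% lower at P3 against fed livers. Of 7 measured hepatocyte genes, 1 rose and 2 fell at P3 against fed livers, the 2 being Ttr (-0.80 ± 0.10) and Ahsg (-0.45 ± 0.09), and the log2 of their summed signal was 15.64 to 15.88 in fed and 15.64 to 15.76 in P3 livers. Of 6 Kupffer cell and macrophage genes none was called in this comparison, with summed levels of 9.88 to 10.83 and 9.91 to 10.75. Of 5 stellate cell and fibroblast genes 1 rose, decorin (Dcn, 3.80 ± 0.39), and 1 fell, Lrat (-1.28 ± 0.22), with summed levels of 9.16 to 10.07 in fed and 10.02 to 11.38 in P3 livers. At P3 against P2, 1 hepatocyte gene was higher and 3 were lower (13.5% of all rows higher, 8.53% lower). The 3 were Alb (-0.39 ± 0.08), Ttr (-0.93 ± 0.10) and Ahsg (-0.41 ± 0.09). The summed hepatocyte level at P2 was 15.86 to 15.92, above the P3 range. In the same comparison 0 Kupffer cell and macrophage genes were called, and 1 stellate cell and fibroblast gene was higher. At P2 against fed livers 0 of the 7 hepatocyte genes were called (6.13% of all rows higher, 6.58% lower). Alb (0.20 ± 0.08), Ttr (0.14 ± 0.10) and Fgb (0.20 ± 0.11) were higher there without overlap (10.2% of all rows). Fga, Serpina1, Ahsg and Cps1 overlapped. Fed 2 was the lowest fed animal in each of the 7 hepatocyte genes. The part of these shifts in the apolipoprotein values was not tested. In whole liver RNA, fewer cells of a type and less RNA per cell cannot be told apart.

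The measured genes nearest to each apolipoprotein gene in RefSeq order were compared with it. Apoe lies between Apoc1, which codes for a small apolipoprotein that inhibits lipoprotein lipase, and Tomm40, a subunit of the mitochondrial import pore. Apoc1 rose at P2 against fed livers (0.74 ± 0.14, limma adjusted p = 0.0035) and was lower at P3 than at P2 (-1.01 ± 0.14), the directions of Apoe. Tomm40 rose at P3 against fed livers by 2.19 ± 0.18, where Apoe had -0.11 ± 0.09. Apom lies between Bag6, a chaperone, and G4. Bag6 was lower at P2 than in fed livers (-0.66 ± 0.15) and higher at P3 than at P2 (1.06 ± 0.15), where Apom had 1.18 and -3.20. G4 was not called at P2 (-0.05 ± 0.34) or P3 (0.61 ± 0.34) against fed livers. Beside Apoa2, Tomm40l fell at P3 (-0.83 ± 0.18) and Fcer1g did not pass the test (-0.07 ± 0.18). Beside Apob, Ldah, a hydrolase of lipid droplets, was lower at P3 (-1.34 ± 0.24) and rose with re-feeding (2.05 ± 0.24), and Atad2b, on the other side, was not called at P3 (0.11 ± 0.28). The nearest measured genes of Apoa5 differed in direction at P3 against fed livers, Pafah1b2 being higher (0.51 ± 0.16) and Cadm1 lower (-1.29 ± 0.18). The call of Pafah1b2 ended with the omission of any 1 of 5 arrays (limma adjusted p up to 0.105). Beside Apoh, Axin2 was lower at P2 (-0.84 ± 0.18), where Apoh rose, and Cacng5 was not called (0.10 ± 0.13). These neighbours were looked up after the values of the apolipoprotein genes were seen.

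Likeness of pattern was measured as Pearson's r over the 16 arrays against 8249 other genes brighter than the median row, a description in which all genes share the arrays and the groups. Nearest to Apob were Hyal1 (0.939), a hyaluronidase, Fzd8 (0.939), a Wnt receptor, Met (0.932), the receptor of hepatocyte growth factor, and Pcdh1 (0.928). Fzd8 and Pcdh1 were called in no comparison between groups. Hyal1 and Met were called only as lower at P3 than in fed livers (limma adjusted p = 0.025 and 0.047). The omission of any 1 of 3 arrays ended the call of Hyal1 (up to 0.059), and of any 1 of 12 that of Met (up to 0.13). Without P3 3, the array with the lowest Apob, the P3 difference of Met from fed livers was -0.72. The part of that array in these likenesses was not tested. For the other 5 genes the same measure was taken after their values were seen. Nearest to Apom were Iyd (0.987), which recovers iodide, Ambp (0.986), the precursor of the plasma lipocalin alpha-1-microglobulin, Hagh (0.985) and Eci3 (0.981). Nearest to Apoa5 were Btg1 (0.959), Ctsl (0.956), a lysosomal protease, Igfbp1 (0.955), which insulin represses, and Pla2g12a (0.952). Nearest to Apoa2 was Hsd11b1 (0.967), which regenerates glucocorticoids, and nearest to Apoh and Apoe were Nudt8 (0.955) and Tmem176b (0.981). Among the 15 pairs of the 6 genes, r was highest between Apoa2 and Apom (0.939), Apoe and Apom (0.886), Apoa2 and Apoe (0.847) and Apoe and Apoh (0.843), and lowest between Apoa5 and Apom (-0.598). Taken on deviations from the group means, r for these pairs was, in the same order, 0.70, 0.97, 0.731, 0.719 and -0.132.

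**Figure D4:**
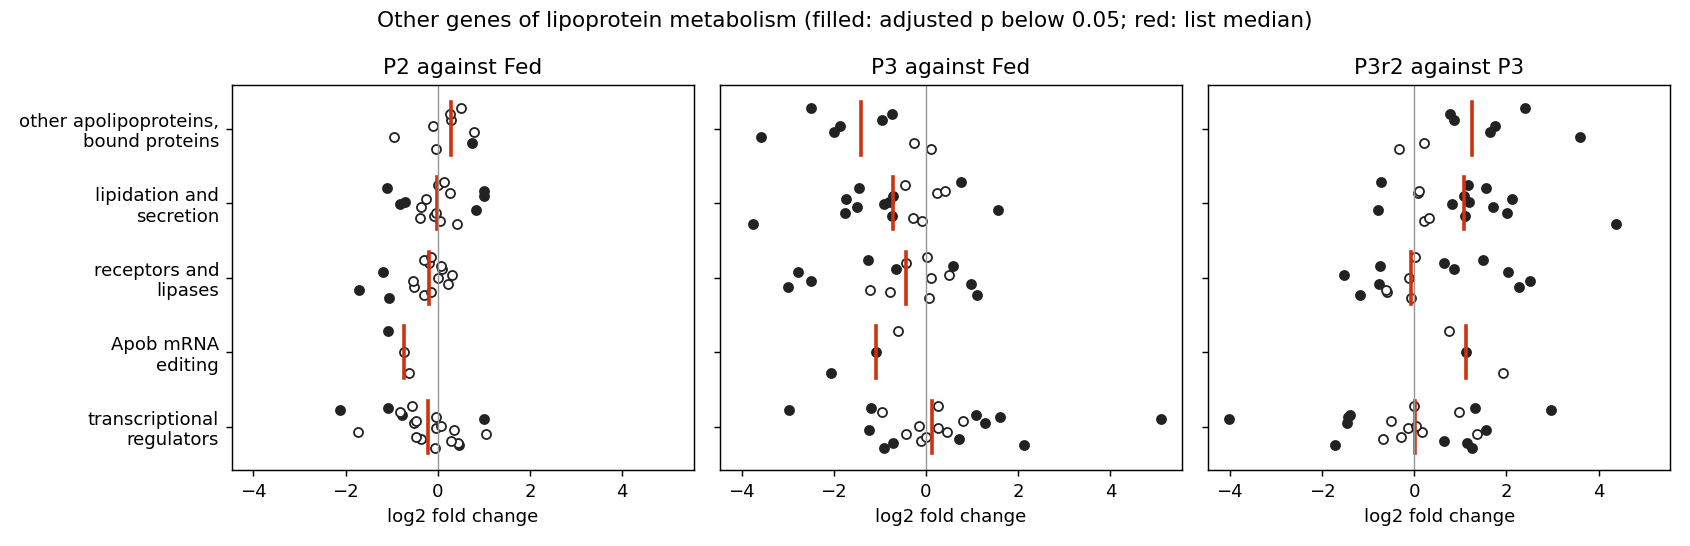
Log2 fold change (horizontal axes) of other measured genes of lipoprotein metabolism in 5 lists (rows), at P2 and at P3 against fed livers and from P3 to re-feeding (panels). Each point is 1 gene, filled where called at an adjusted p below 0.05, and the red line is the median of the list. The list of other apolipoproteins lies to the left at P3 and to the right with re-feeding.

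Other genes of the pathway were taken from 5 lists, chosen with earlier results of these data known, so their counts are a description. Their counts stand against the shares of all rows called: 6.13% higher and 6.58% lower at P2, 11.3% and 8.07% at P3 against fed livers, and 10.5% and 7.94% from P3 to re-feeding. The medians of all rows in these comparisons were 0.05, 0.03 and -0.03. Of 8 measured apolipoproteins and lipoprotein-bound proteins, 6 fell at P3 against fed livers (list median -1.41) and 6 rose from P3 with re-feeding (median 1.26), while 1 rose at P2 (median 0.28). With single arrays left out 6 fell at P3 each time, 5 to 6 rose with re-feeding and 1 to 2 rose at P2. The falls at P3 were largest in Apof (-3.58 ± 0.39), an inhibitor of lipid transfer, Pon3 (-2.50 ± 0.28), a lactonase of HDL, Apon (-1.99 ± 0.45) and Clu (-1.86 ± 0.33), clusterin or apolipoprotein J. With re-feeding Apof rose by 3.59 ± 0.39 and Pon3 by 2.41 ± 0.28.

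Of 16 measured genes of lipidation and secretion, 3 rose and 3 fell at P2 against fed livers (median -0.02), 2 rose and 9 fell at P3 (median -0.72), and 10 rose and 2 fell from P3 with re-feeding (median 1.08). With single arrays left out 2 to 4 fell at P2 and 7 to 10 at P3. At P3 the largest fall was that of Aadac (-3.76 ± 0.39), a lipase that mobilizes stored triglyceride for VLDL, and P4hb (-1.73 ± 0.11), protein disulfide isomerase, the partner of Mttp in the transfer protein, fell as well. Cidec (-1.75 ± 0.25), a lipid droplet protein, fell, and Dgat1 (1.56 ± 0.19), which makes triglyceride, rose. Aadac (4.38 ± 0.39), P4hb (2.12 ± 0.11), Cidec (2.01 ± 0.25) and Dgat2 (1.72 ± 0.22) rose from P3 with re-feeding. At P2 against fed livers Sar1b (1.01 ± 0.21), the GTPase of the vesicles that carry lipoproteins out of the endoplasmic reticulum, Pla2g12b (1.00 ± 0.22), which aids the loading of triglyceride, and Dgat1 (0.82 ± 0.19) rose, and Sec24d (-1.09 ± 0.23), a coat protein of such vesicles, fell.

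Of 15 measured receptors and lipases, 3 fell at P2 (median -0.18), 3 rose and 5 fell at P3 (median -0.43), and 6 rose and 4 fell from P3 with re-feeding (median -0.07). With single arrays left out 2 to 3 fell at P2, 4 to 6 fell at P3 and 5 to 6 rose with re-feeding. Lrp1, an endocytic receptor of remnants that binds Apoe, was lower than in fed livers at P2 (-1.20 ± 0.20) and at P3 (-2.78 ± 0.20). Lipc (-2.50 ± 0.29), hepatic lipase, and Angptl4 (-2.99 ± 0.36), an inhibitor of lipoprotein lipase, fell at P3 and rose with re-feeding (2.52 ± 0.29 and 2.28 ± 0.36), and Lpl (-1.53 ± 0.33), lipoprotein lipase, fell from P3 with re-feeding. Abca1 (-1.05 ± 0.21), which loads cholesterol onto HDL proteins, fell at P2. Abcg8, a sterol exporter, fell at P2 (-1.70 ± 0.42) and Sdc1, a remnant receptor, at P3 (-1.26 ± 0.39), but the omission of any 1 of 2 arrays ended the first call (limma adjusted p up to 0.056) and of any 1 of 5 the second (up to 0.10).

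Rat liver edits Apob mRNA to make the short form, apolipoprotein B-48, with the deaminase Apobec1 and its cofactor A1cf or Rbm47. The arrays measured the level of these mRNAs and not the editing. Apobec1 fell at P3 against fed livers (-1.08 ± 0.24, limma adjusted p = 0.0040) and rose from P3 with re-feeding (1.13 ± 0.24). A1cf fell at P3 (-2.07 ± 0.67, adjusted p = 0.042), a call ended by the omission of any 1 of 11 arrays. Rbm47 fell at P2 (-1.08 ± 0.28, adjusted p = 0.022), with an adjusted p of 0.069 without fed 4 and 0.067 without P2 4.

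Among 20 measured transcription factors and coactivators known to act on apolipoprotein genes, 2 rose and 3 fell at P2 (median -0.21), 6 rose and 5 fell at P3 (median 0.14), and 6 rose and 5 fell from P3 with re-feeding (median 0.01). With single arrays left out 0 to 2 rose at P2, the 0 being without fed 2 or without P2 1. Hnf4a, a nuclear receptor that binds many apolipoprotein promoters, differed by 0.0037 ± 0.17 between P3 and fed livers and was not called in any of the 6 comparisons; it is named here after its values were seen. The largest differences were those of Ppargc1a, a coactivator of fasting genes, which was 5.10 ± 0.29 higher at P3 than in fed livers and fell with re-feeding (-4.01 ± 0.29), and of Srebf1, the insulin-responsive activator of fatty acid synthesis, which was lower at P2 (-2.13 ± 0.21) and P3 (-2.96 ± 0.21) and rose with re-feeding (2.96 ± 0.21). Srebf2, the activator of cholesterol synthesis, fell at P2 (-1.09 ± 0.23). The P2 calls of Ppargc1a (1.01 ± 0.29) and Rora (-0.78 ± 0.23) each ended with the omission of any 1 of 4 arrays, with adjusted p up to 0.093 and 0.12, and that of Cebpb (0.46 ± 0.14) with any 1 of 8, up to 0.12. Cebpb rose at P3 (2.12 ± 0.14) and fell with re-feeding (-1.72 ± 0.14), and Ppargc1b, a coactivator, rose at P3 (1.60 ± 0.18). Nr1h3, the oxysterol receptor LXR alpha, rose from P3 with re-feeding (1.55 ± 0.20).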

How the data were processed

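Liver RNA of 16 rats was measured on Affymetrix Rat Exon 1.0 ST arrays. The authors deposited 1 log2 value per transcript cluster and array. The submitters' processing notes name the software GCOS and, at version 1.1, Expression Console. No source used here names the summarisation, the normalization or the genome build. The log2 base was inferred from the range of the values. Genes were named from the platform annotation: of the rows tested, 13327 had 1 symbol, 620 several and 4937 none, and 534 rows below the annotated range were left out. The values were used as deposited. One limma 3.58.1 model (R 4.3.3) was fitted over all 16 arrays with 6 contrasts between groups, which share samples, and p-values were adjusted over 18884 rows by Benjamini-Hochberg. The number of arrays limits the precision. Groups came from the sample labels, and each array is 1 animal.

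The genes and lists were chosen with earlier results of these data known. For each pathway list, up to 4 called genes with the largest differences were named. Likeness was to be given for Apoa4, Apob and Mttp, of which only Apob was measured. The script was tested on simulated data. Other scalings, filters, models, a replicate block and the omission of each array were tried. Promoter sequences came from RefSeq (GRCr8).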

Additional observations from a re-analysis of the deposited data

Results flagged for a closer look

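In 3 of the 24 sets of 4 animals (6 genes in 4 groups), 1 animal lay far from the other 3 by Dixon's test, which flags about 5% of sets by chance. In fed livers, fed 2 was lowest in Apoa5 at 9.974, with the next animal at 10.47, and in Apoh at 12.06, with the next at 12.54. In re-fed livers, P3r2 1 was lowest in Apoa5 at 9.604, with the next at 10.13. Fed 2 is 1 of the 3 arrays of narrow spread. Without it the P2 rise was 0.42 for Apoa5 (limma adjusted p = 0.099), no longer called.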

How the results depend on the processing

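The number of arrays limits what can be called, and Apoe and Apoh lie near the top of the signal range. The calls of Apom, Apoa2 and Apoa5 at P3 against fed livers, between the phases and from P3 to re-feeding held with each of the 16 arrays left out. The P2 comparison was the least stable: of 2 genes called, 1 was called after median centring, 1 with a mean-variance trend, 1 with a replicate block and 0 at an adjusted p below 0.01, and 1 to 4 with single arrays left out. Over the other settings of this comparison 9 calls were lost and 7 gained, the gains being of Apob and Apom, and the count reached 3 with quantile normalization, with dim rows left out and with the array spread as a covariate. Between re-fed and fed livers 0 were called, and 1 after a correction for a trend with gene length. Between re-fed and P2 livers 2 were called, and 4 with these groups fitted alone. Same-numbered animals did not deviate together (correlations of -0.401 to 0.262, with 6 of 24 pairs over 0.1), so the numbers were not taken as pairs.

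Signs turned only for differences that were not called. Without the 3 arrays of narrow spread, Apob had 0.16 between P3 and P2 and -0.0057 from P3 to re-feeding, Apoh -0.065 between P3 and fed livers, and Apoa2 and Apoe -0.0015 and -0.0079 between re-fed and fed livers. With quantile normalization Apob had 0.026 between P3 and P2 and Apoh -0.050 between P3 and fed and 0.010 from P3 to re-feeding, and with array weights 0.049 for Apob and -0.034 for Apoh in the first 2 of these. With the array spread as a covariate Apob had -0.29 between re-fed and P2, Apoe -0.0077 between re-fed and fed and Apoh -0.0013 between P3 and fed, and with the length trend these were -0.0855, -0.13 and -0.14. With single arrays left out the ranges were -0.39 to 0.26 (Apob, P3 and P2), -0.0057 to 0.64 (Apob, P3 to re-feeding), -0.0015 to 0.39 (Apoa2, re-fed and fed), -0.0079 to 0.061 (Apoe, re-fed and fed), and for Apoh -0.13 to 0.068 (P3 and fed), -0.15 to 0.040 (re-fed and fed) and -0.087 to 0.0095 (P3 to re-feeding). The cause was not tested.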

Other observations

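Fabp2, the intestinal fatty acid binding protein, was measured as a marker of enterocytes, the other cells that make Apob-containing particles. Its log2 signal was 3.26, 2.92, 2.98 and 3.54 in fed livers, 2.90, 3.04, 3.46 and 3.72 at P2, 2.50, 2.55, 2.81 and 2.59 at P3, and 6.08, 5.98, 5.51 and 6.15 after re-feeding. All 4 re-fed animals stood above all others. The difference from fed livers was 2.75 ± 0.19 log2 units (limma adjusted p = 6.1e-06). The other measured gene of the 5 listed for enterocytes, Apobec1, which rat liver also expresses, differed between re-fed and fed livers by 0.05 ± 0.24 (adjusted p = 0.97) and was not called. The source of the Fabp2 signal was not tested.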
